A study of Mus musculus with 11 samples.

Results

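The expression of 43 genes that break down fatty acids, branched-chain amino acids and propionate, in mitochondria and in peroxisomes, was followed in keratinocytes (KCs) and dendritic epidermal T cells (DETCs) of mice with and without Langerhans cells (LCs). The genes were taken by name from a list of pathway members, and all 43 were found among the 52550 genes of the deposited table. By role they were 3 genes for fatty acid activation and carnitine entry, 11 for mitochondrial beta-oxidation, 14 for branched-chain amino acid breakdown, 3 for the conversion of propionate to succinyl-CoA and 12 for peroxisomal oxidation and peroxisome assembly. In all, 42 of the 43 passed a filter on low values (CPM, reads scaled to library size, above 1 in at least 2 libraries), as did 14419 genes in total. The exception was Pxmp2, a peroxisomal membrane channel, with normalized counts of 1.05 to 9.95.

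LC-/- mice carried the huLangerin-DTA transgene, in which regulatory sequence of the human langerin gene drives a diphtheria toxin subunit, so that LCs are missing from birth. Control mice were wild-type (WT) littermates, and all mice were female and 8 weeks old. Both populations were sorted from flank epidermis as cells negative for MHC-II, langerin and c-kit, KCs without and DETCs with CD45. There were 3 WT and 3 LC-/- KC libraries and 3 WT and 2 LC-/- DETC libraries. WT libraries are written W1 to W3 and LC-/- libraries L1 to L3 after the numbers in their labels, and no DETC library carried the number of L1. The study drew attention to these pathways from the same libraries, so the counts by genotype below are not independent evidence of a direction.

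Long-chain fatty acids are joined to coenzyme A and pass into mitochondria as carnitine esters, where repeated rounds of dehydrogenation, hydration, a further dehydrogenation and thiolysis release acetyl-CoA. Leucine, isoleucine and valine are transaminated and then oxidized by a shared dehydrogenase complex, and the carbon of the last pair enters the citric acid cycle partly through propionyl-CoA. Peroxisomes shorten very long and branched chains, produce hydrogen peroxide in doing so, and import their enzymes by means of peroxin proteins. In the epidermis fatty acids are also built into the lipids of the permeability barrier.

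Read totals on genes ran from 13491075 to 19750440 per library. Values are normalized counts, that is, read counts divided by a size factor for each library. The LC gene Cd207 had normalized counts of 6.1, 26.9 and 15.6 in WT KCs and 0 in all 3 LC-/- KC libraries, and 21.8, 16.5 and 46.7 in WT DETCs against 0 and 4.4 in LC-/- DETCs. A median of 0.00155% to 0.0234% of the DETC level was reached by the 16 DETC markers in KC libraries. The 20 KC markers in DETC libraries stood at a median of 15.2% to 18.6% of their level in WT KCs, and at 25.0% (L2) and 16.8% (L3) of their level in LC-/- KCs, and none of the 20 was at 0 in any library. Summed over the list, KC markers gave 747541 to 780760 in WT KCs, 761630 to 801981 in LC-/- KCs, 126065 to 150120 in WT DETCs and 138774 to 208611 in LC-/- DETCs. KC transcripts were thus counted in every DETC library.

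The 2 populations were compared first, by limma on a log2 scale (normalized count + 1). P-values were adjusted over all 14419 genes by Benjamini-Hochberg, and a gene is called where the adjusted p is under 0.05. In WT mice 6 of the 42 members were higher in DETCs and 20 were lower. Of all genes tested, 41.0% were higher and 35.1% were lower. In LC-/- mice, whose libraries are not shared with the WT comparison, 7 members were higher and 17 lower, against 38.1% and 32.1% of all genes. The median log2 difference between DETCs and KCs over the members was -0.29 in WT and -0.27 in LC-/- mice, and over all genes 0.07 and 0.08. After quantile normalization, which moved the median of all genes to -0.24 and -0.28, 4 members were higher and 28 lower in WT DETCs, and 5 were higher and 27 lower in LC-/- DETCs. The call and its direction were shared by 21 members in both genotypes, 6 of them higher in DETCs and 15 lower, against 36.0% and 29.5% of all genes. In bulk samples a lower share of cells that express a gene and less of its RNA per cell cannot be told apart.

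**Figure D1:**
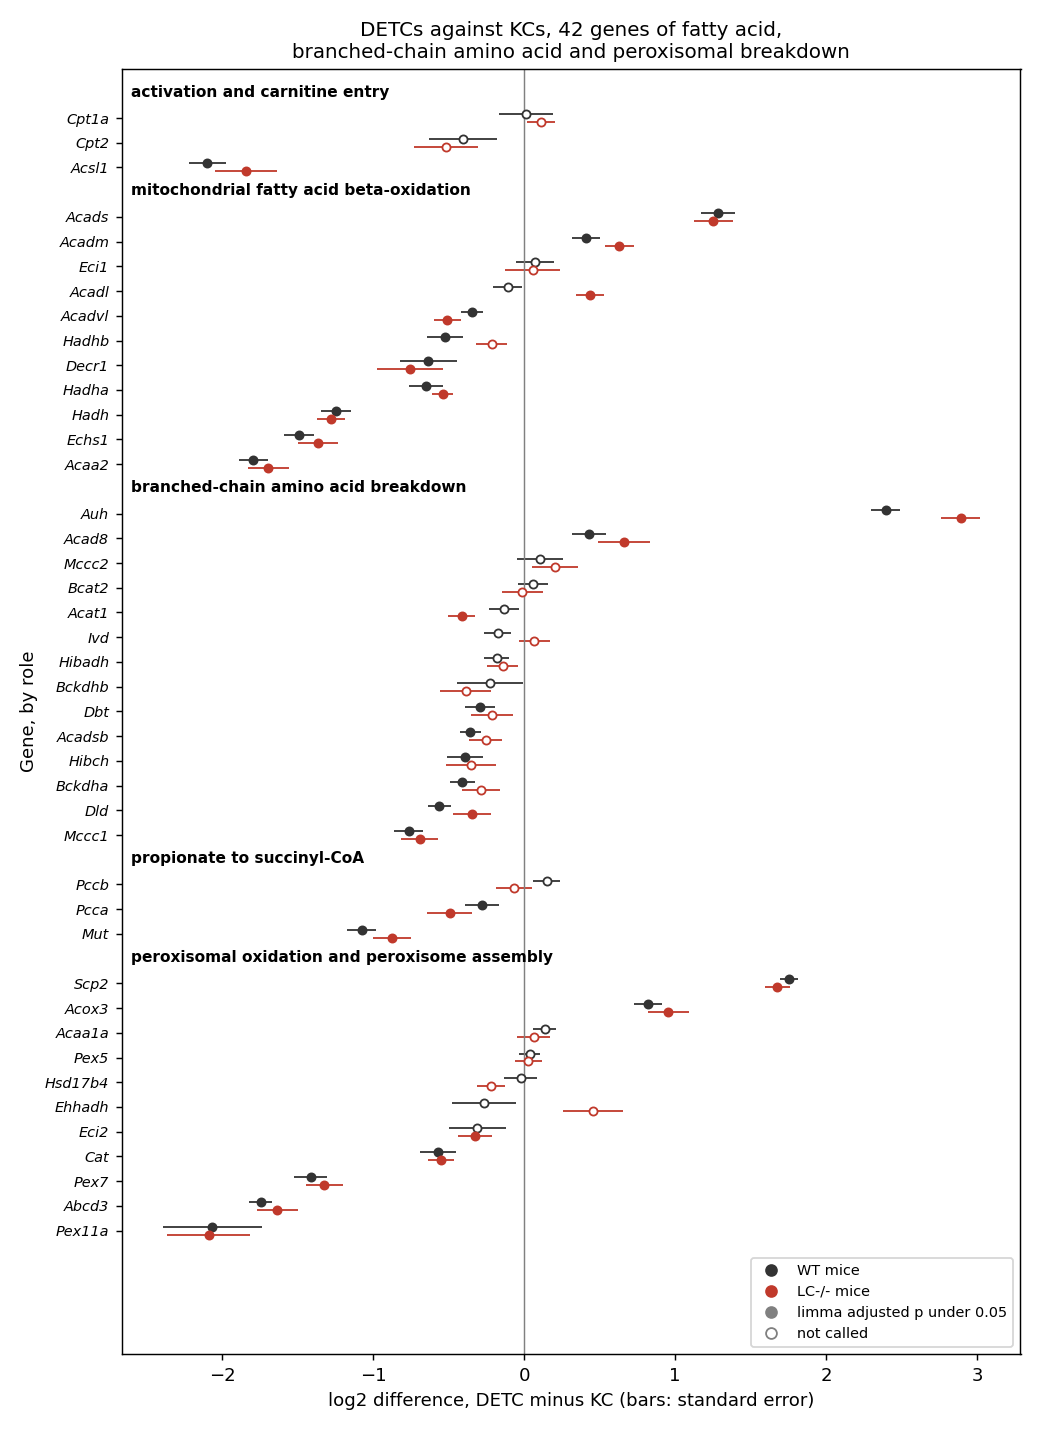
The difference between DETCs and KCs for the 42 members that passed the filter, by role. The x axis is the log2 difference (DETC minus KC) with its standard error, in WT (dark) and LC-/- mice (red), and filled points had an adjusted p under 0.05. Most points lie left of 0, and Auh, Scp2 and Acads lie far to the right in both genotypes.

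The members that stood higher in DETCs were not of 1 role. Auh, which encodes an enoyl-CoA hydratase of leucine breakdown that also binds RNA, had the largest difference. It had 221, 209 and 192 normalized counts in WT KCs, 157.5, 163 and 192 in LC-/- KCs, 1216, 1015 and 1053 in WT DETCs, and 1318.5 and 1218 in LC-/- DETCs. Every DETC library was far above every KC library. Auh was 5.25-fold higher in WT DETCs (log2 2.39 ± 0.10 SE, limma adjusted p = 1.79e-08) and 7.41-fold higher in LC-/- DETCs (log2 2.89 ± 0.13, adjusted p = 4.86e-06).

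Scp2 encodes sterol carrier protein 2 and, from the same gene, the thiolase that cleaves branched-chain acyl-CoA in peroxisomes. It had 748, 726 and 737 normalized counts in WT KCs and 643, 684 and 689 in LC-/- KCs. In DETCs it had 2439, 2512 and 2523.5 (WT) and 2181 and 2117 (LC-/-), again without overlap between the populations. The difference was 3.38-fold in WT (log2 1.76 ± 0.06, limma adjusted p = 6.35e-09) and 3.19-fold in LC-/- mice (log2 1.68 ± 0.08, adjusted p = 7.34e-06). Acads, the acyl-CoA dehydrogenase for short chains, had 150.6, 154 and 145 normalized counts in WT KCs and 415, 333 and 354 in WT DETCs. In LC-/- mice it had 133, 152 and 147 in KCs and 358 and 330.6 in DETCs. It was 2.43-fold higher in WT DETCs (limma adjusted p = 4.27e-06) and 2.38-fold higher in LC-/- DETCs (adjusted p = 0.000209).

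The other members that were higher in DETCs of both genotypes were Acox3, a peroxisomal oxidase for branched chains (log2 0.82 ± 0.09 in WT), Acad8, the isobutyryl-CoA dehydrogenase of valine breakdown (0.43 ± 0.11), and Acadm, the dehydrogenase for medium chains (0.41 ± 0.09). Among the dehydrogenases of straight-chain fatty acids the direction differed by chain length. Acads and Acadm were higher in WT DETCs. Acadvl, for very long chains, was lower (-0.35 ± 0.07), and Acadl, for long chains, was not called in WT (-0.11 ± 0.09, limma adjusted p = 0.311) and was higher in LC-/- DETCs (0.44 ± 0.09, adjusted p = 0.00518).

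The remaining steps of mitochondrial beta-oxidation were mostly higher in KCs. Of the 11 members of this role, 2 were higher and 7 lower in WT DETCs, against 41.0% and 35.1% of all genes. Acaa2, the thiolase that releases acetyl-CoA, had 979, 817 and 812 normalized counts in WT KCs and 241, 243 and 263.5 in WT DETCs. In LC-/- mice it had 648, 840.8 and 713.5 in KCs and 236 and 214.5 in DETCs. All DETC libraries were below all KC libraries, and the level was 3.46-fold lower in WT DETCs (log2 -1.79 ± 0.10, limma adjusted p = 1.23e-07). Echs1, the short-chain enoyl-CoA hydratase (-1.49 ± 0.10), Hadh, the hydroxyacyl-CoA dehydrogenase for short and medium chains (-1.25 ± 0.10), and the subunit genes Hadha and Hadhb of the trifunctional protein (-0.65 ± 0.11 and -0.52 ± 0.12) were lower as well. Eci1, an enoyl-CoA isomerase, was not called (0.07 ± 0.13, adjusted p = 0.613).

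At the entry to the pathway Acsl1, a ligase that activates long-chain fatty acids, had 2636, 2384 and 2129.9 normalized counts in WT KCs and 472.5, 655 and 549 in WT DETCs. In LC-/- mice it had 1869.6, 2288 and 2434 in KCs and 757 and 488 in DETCs. It was 4.28-fold lower in WT DETCs (log2 -2.10 ± 0.12, limma adjusted p = 2.37e-07) and 3.59-fold lower in LC-/- DETCs (adjusted p = 0.000271). Cpt1a and Cpt2, the carnitine acyltransferase genes among the members, were not called in either genotype. For Cpt1a, the regulated outer-membrane enzyme, the log2 difference was 0.01 ± 0.18 in WT, and for Cpt2, its inner-membrane partner, it was -0.41 ± 0.22.

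Of the 11 peroxisomal members tested, 2 were higher and 4 lower in WT DETCs, against 41.0% and 35.1% of all genes, so the share that was lower was near that of all genes. Pex11a, which acts in peroxisome division, had 76.9, 100.2 and 89.9 normalized counts in WT KCs, 80.4, 125 and 120.8 in LC-/- KCs, 24, 11.6 and 30.1 in WT DETCs and 28.2 and 21.0 in LC-/- DETCs. It was 4.18-fold lower in WT DETCs (log2 -2.06 ± 0.33, limma adjusted p = 0.000292) and 4.25-fold lower in LC-/- DETCs (adjusted p = 0.000609). Abcd3, a transporter of acyl-CoA into peroxisomes (-1.75 ± 0.08), Pex7, an import receptor (-1.41 ± 0.11), and Cat, the catalase that removes hydrogen peroxide (-0.57 ± 0.12), were lower too. Pex5, the main import receptor, was not called (0.04 ± 0.07, adjusted p = 0.633).

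**Figure D2:**
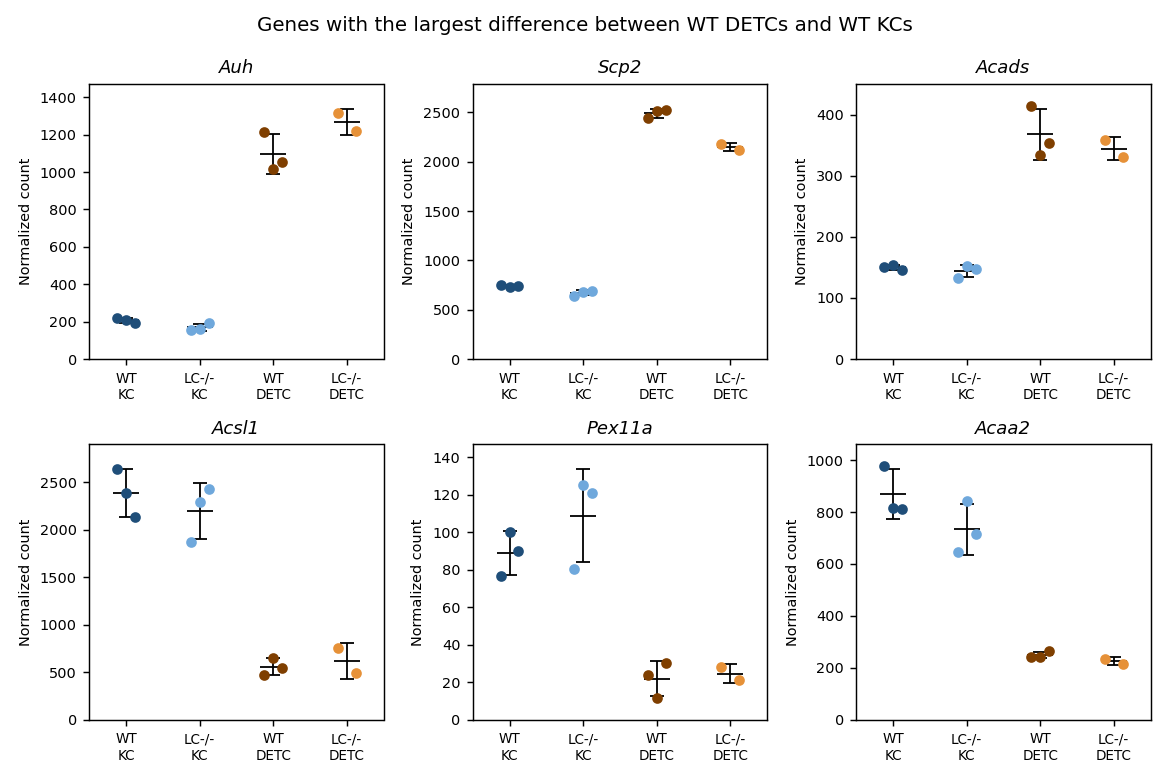
Normalized counts of the 3 members with the largest rise and the 3 with the largest fall from WT KCs to WT DETCs. Each point is a library and bars are the mean and SD. Auh, Scp2 and Acads are higher in all 5 DETC libraries, and Acsl1, Pex11a and Acaa2 are lower in all 5.

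For branched-chain amino acids 2 of 14 members were higher and 6 lower in WT DETCs, against 41.0% and 35.1% of all genes. In LC-/- mice 2 were higher and 3 lower, against 38.1% and 32.1%. The share that was lower was thus 42.9% in WT and 21.4% in LC-/- mice. Auh and Acad8 were on the higher side in both genotypes. In WT the largest falls were in Mccc1, a subunit of the carboxylase of leucine breakdown (-0.76 ± 0.10), and Dld, the dihydrolipoamide dehydrogenase shared by several complexes (-0.56 ± 0.07). The aminotransferase gene Bcat2, which begins the pathway, did not pass the test (0.06 ± 0.10, limma adjusted p = 0.623). In the propionate branch Mut, the methylmalonyl-CoA mutase, was 2.11-fold lower in WT DETCs (-1.08 ± 0.10), Pcca, a carboxylase subunit, was lower (-0.28 ± 0.11, adjusted p = 0.0425), and its partner subunit Pccb was not called (0.15 ± 0.09, adjusted p = 0.149).

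The KC transcripts in the DETC libraries bear on the members that were lowest there. WT DETCs held 23.5% of the KC level of Acsl1, 24.6% of Pex11a, 28.7% of Acaa2, 29.8% of Abcd3 and 35.6% of Echs1, and KC markers stood at 15.2% to 18.6%. In LC-/- mice the same members stood at 28.3%, 22.6%, 30.7%, 32.4% and 38.6%, and KC markers at 25.0% and 16.8%. The part of KC transcripts in these levels was not tested.

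Per kilobase of exon, the members with the highest mean level in WT KCs were Acaa2 (573 normalized counts per kilobase), Cat (534), Acadvl (501) and Acadl (474). In WT DETCs they were Scp2 (716), Acadl (437), Acadvl (394) and Cat (358). Auh was among the lowest in WT KCs at 21.6 and reached 114 in WT DETCs. These lengths join the exons of all annotated transcripts of a gene, so they exceed the length of single transcripts.

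The promoters of members with opposite direction are shown so that their sequence can be compared, with Auh and Scp2 higher in DETCs and Pex7, Hadh and Echs1 lower. Each is the 250 bases before the RefSeq start on GRCm38.p6, printed 5′ to 3′ on the strand of the gene. Capitals mark GGGCGG (a GC box), CCAAT, and AGGTCA (the core bound by nuclear receptors such as the PPAR family), on either strand. All 5 genes lie on the minus strand, with windows for Auh at chr13:52929678-52929927, Scp2 at chr4:108118548-108118797, Pex7 at chr10:19907675-19907924, Hadh at chr3:131272102-131272351 and Echs1 at chr7:140116422-140116671. The Scp2 window precedes a start inside the gene, whose annotated 5′ end is at 108144998. Counts per gene do not tell which start the Scp2 reads came from.
Auh: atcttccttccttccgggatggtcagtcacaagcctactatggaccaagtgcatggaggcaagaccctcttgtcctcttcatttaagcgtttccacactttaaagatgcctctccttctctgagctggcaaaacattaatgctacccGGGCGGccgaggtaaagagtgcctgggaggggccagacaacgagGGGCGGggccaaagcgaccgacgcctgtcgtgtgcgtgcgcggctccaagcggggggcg
Scp2: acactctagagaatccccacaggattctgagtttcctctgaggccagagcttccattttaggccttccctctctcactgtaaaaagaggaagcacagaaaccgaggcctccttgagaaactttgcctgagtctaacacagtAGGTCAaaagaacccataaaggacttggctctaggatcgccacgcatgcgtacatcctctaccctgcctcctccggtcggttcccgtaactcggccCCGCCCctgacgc
Pex7: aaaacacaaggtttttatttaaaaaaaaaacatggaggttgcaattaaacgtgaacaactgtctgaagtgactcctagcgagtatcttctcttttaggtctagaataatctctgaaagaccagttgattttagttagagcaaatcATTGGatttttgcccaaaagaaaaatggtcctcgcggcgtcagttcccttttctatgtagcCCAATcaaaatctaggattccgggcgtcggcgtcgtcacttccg
Hadh: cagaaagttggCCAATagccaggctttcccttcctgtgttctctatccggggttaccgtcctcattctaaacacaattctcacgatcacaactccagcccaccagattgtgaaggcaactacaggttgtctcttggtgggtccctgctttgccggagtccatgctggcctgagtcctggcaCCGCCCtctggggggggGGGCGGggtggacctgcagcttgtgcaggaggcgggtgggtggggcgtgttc
Echs1: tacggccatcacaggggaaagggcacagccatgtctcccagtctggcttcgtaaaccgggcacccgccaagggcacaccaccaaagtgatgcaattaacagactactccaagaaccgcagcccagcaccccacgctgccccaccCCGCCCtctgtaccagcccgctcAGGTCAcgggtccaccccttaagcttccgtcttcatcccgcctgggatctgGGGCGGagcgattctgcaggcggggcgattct
The Auh window held 2 GC boxes, that of Scp2 held 1 GC box and 1 AGGTCA, that of Pex7 held 2 CCAAT, that of Hadh held 2 GC boxes and 1 CCAAT, and that of Echs1 held 2 GC boxes and 1 AGGTCA. RefSeq windows were matched for 36 of the 43 members (43 windows, as some genes have several starts) and for 32817 starts in all. The 32817 starts were not limited to genes expressed in these libraries. The 7 members with no window were Acaa2, Acat1, Dbt, Decr1, Hsd17b4, Mut and Pxmp2. GGGCGG stood in 60.5% of the members' windows and in 32.7% of all windows, CCAAT in 44.2% and 33.8%, and AGGTCA in 18.6% and 14%. TATAAA, the TATA box, stood in 0 of the 43 windows and in 12.4% of all windows. The estrogen-related receptor motif TCAAGGTCA, which contains AGGTCA, stood in 0 windows of members and in 0.387% of all. CACGTG, an E-box, stood in 2.33% and 6.02%, and GCATGCGC, a core of the NRF1 motif, in 4.65% and 2.25%. A match is a description of the letters and not a binding site.

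LC-/- and WT mice were then compared within each population, which asks what long-term absence of LCs does to the neighbouring cells. In KCs 1 member was called higher, Pex5, and 1 was called lower, Pex7, against 5.37% and 1.85% of all genes. Both encode receptors that carry enzymes into the peroxisome, and Pex7 needs Pex5 for this import. Below the threshold the members leaned downwards. The log2 difference was below 0 for 36 of 42 members, against 51.8% of all genes, and its median was -0.21 over the members and -0.01 over all genes. At an unadjusted p under 0.05, 16 members were lower and 1 was higher, against 11.7% and 14.7% of all genes. Every LC-/- library was below every WT library for 19 members and above for 1, against 14.9% and 16.6% of all genes.

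**Figure D3:**
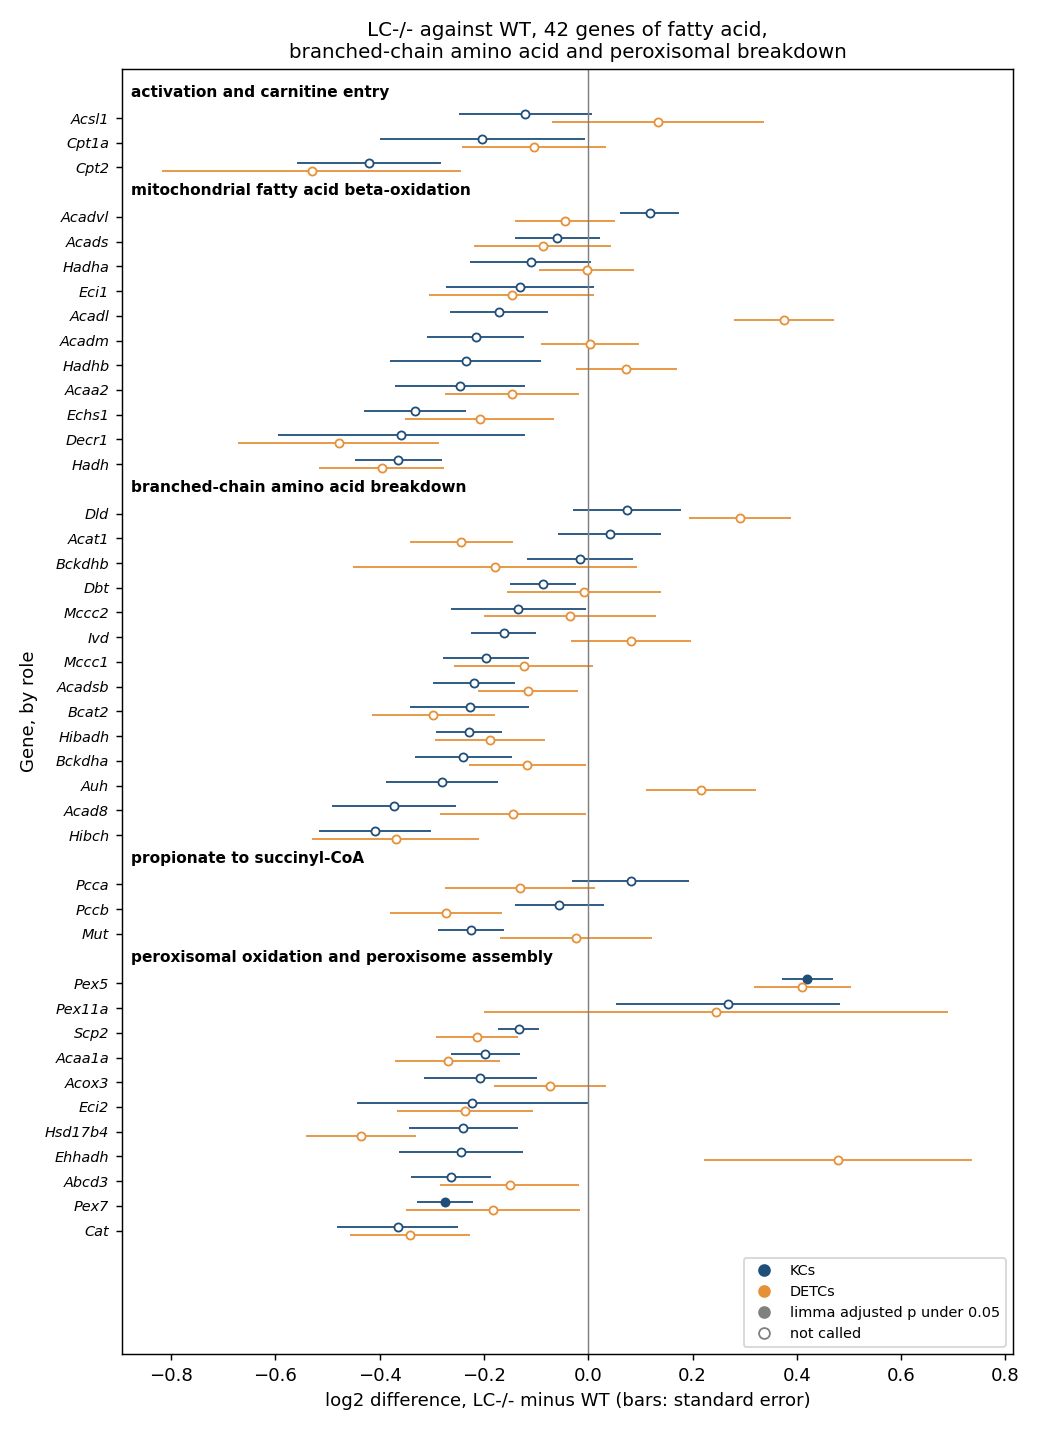
The difference between LC-/- and WT mice for the 42 members that passed the filter, by role. The x axis is the log2 difference (LC-/- minus WT) with its standard error, in KCs (blue) and DETCs (orange), and filled points had an adjusted p under 0.05. Of the KC points 36 of 42 lie left of 0, and the filled points are Pex5 and Pex7 in KCs.

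By role, 10 of 11 members of mitochondrial beta-oxidation, 12 of 14 of branched-chain amino acid breakdown, 9 of 11 peroxisomal members, 3 of 3 of carnitine entry and 2 of 3 of the propionate branch had a log2 difference below 0 in KCs. Their medians were -0.22, -0.21, -0.22, -0.20 and -0.06. Against the WT mean, the median member stood at -0.18 (L1), -0.15 (L2) and -0.16 (L3) in LC-/- KCs and at 0.07 (W1), -0.04 (W2) and -0.01 (W3) in WT KCs. All 3 LC-/- libraries were thus below all 3 WT libraries in this median. The WT library W1 held the highest value of the WT KCs for 28 of 42 members. Without W1, 36 of 42 members were still below 0 and the median was -0.14. The mitochondrially encoded transcripts were below 0 for 11 of 11 in LC-/- KCs, with a median log2 difference of -0.17. Of the 11, 0 were called by limma, edgeR or DESeq2, and 0 had an unadjusted p under 0.05. Summed over all 13 such genes, they gave 131621 in L2, 180596 in L1 and 187314 in L3, against 161136 to 186645 in WT KCs. Of the 20 KC markers 3 were called higher and 0 lower by limma in LC-/- KCs, against 5.37% and 1.85% of all genes. DESeq2 called 5 higher and 0 lower, against 8.43% and 3.72%. The part of RNA quality or cell makeup in the lean was not tested.

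Pex5 had 649, 606 and 639.7 normalized counts in WT KCs and 809.7, 886 and 841 in LC-/- KCs. All LC-/- libraries were above all WT libraries, and the level was 1.34-fold higher (log2 0.42 ± 0.05, limma adjusted p = 0.0214). The count-based tools called Pex5 too (edgeR adjusted p = 0.00483, DESeq2 adjusted p = 0.000691). Pex7, whose promoter is shown above, had 358, 345 and 373 normalized counts in WT KCs and 299, 285 and 305 in LC-/- KCs. It was 1.21-fold lower without overlap (log2 -0.27 ± 0.05, limma adjusted p = 0.047), and was not called by edgeR (adjusted p = 0.0828) or DESeq2 (adjusted p = 0.131). Neither call held when 1 library was left out, except that Pex5 remained called without L2. The adjusted p of limma ran from 0.0411 to 0.0818 for Pex5 and from 0.0722 to 0.145 for Pex7, with the log2 difference between 0.39 and 0.45 and between -0.30 and -0.25. Over all genes the calls in KCs, 775 higher and 267 lower, came to 5 to 10 higher and 0 to 9 lower without W1, W2, L1 or L3.

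On the recovered reads, 3 further members were called lower in LC-/- KCs by both edgeR (3 lower and 1 higher, against 4.10% and 8.27% of all genes) and DESeq2 (3 and 1, against 3.72% and 8.43%). Hadh had 1147, 965 and 953 normalized counts in WT KCs and 794, 761 and 816.5 in LC-/- KCs (log2 -0.36 ± 0.08, limma adjusted p = 0.0649, DESeq2 adjusted p = 0.00746). Cat had 1628, 1212 and 1342 in WT and 1098, 1017 and 1109 in LC-/- KCs (-0.37 ± 0.12, limma adjusted p = 0.125, DESeq2 adjusted p = 0.0117). Echs1 had 762, 739 and 666.5 in WT and 532, 649 and 544 in LC-/- KCs (-0.33 ± 0.10, limma adjusted p = 0.108, DESeq2 adjusted p = 0.0367). None of the 3 overlapped between the genotypes, and W1 was the highest WT library for each of them.

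The members with the largest negative log2 differences that no tool called were Cpt2 (log2 -0.42 ± 0.14, limma adjusted p = 0.132), Hibch, a hydrolase of valine breakdown (-0.41 ± 0.11, adjusted p = 0.0876), Acad8 (-0.37 ± 0.12, adjusted p = 0.126) and Decr1, a dienoyl-CoA reductase (-0.36 ± 0.24, adjusted p = 0.396). The libraries of Decr1 overlapped between the genotypes. On the higher side Pex11a followed Pex5 (0.27 ± 0.22, adjusted p = 0.482), and its libraries overlapped. Acadvl (0.12 ± 0.06), Pcca (0.08 ± 0.11), Dld (0.07 ± 0.10) and Acat1, the mitochondrial acetoacetyl-CoA thiolase (0.04 ± 0.10), completed the 6 members above 0.

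**Figure D4:**
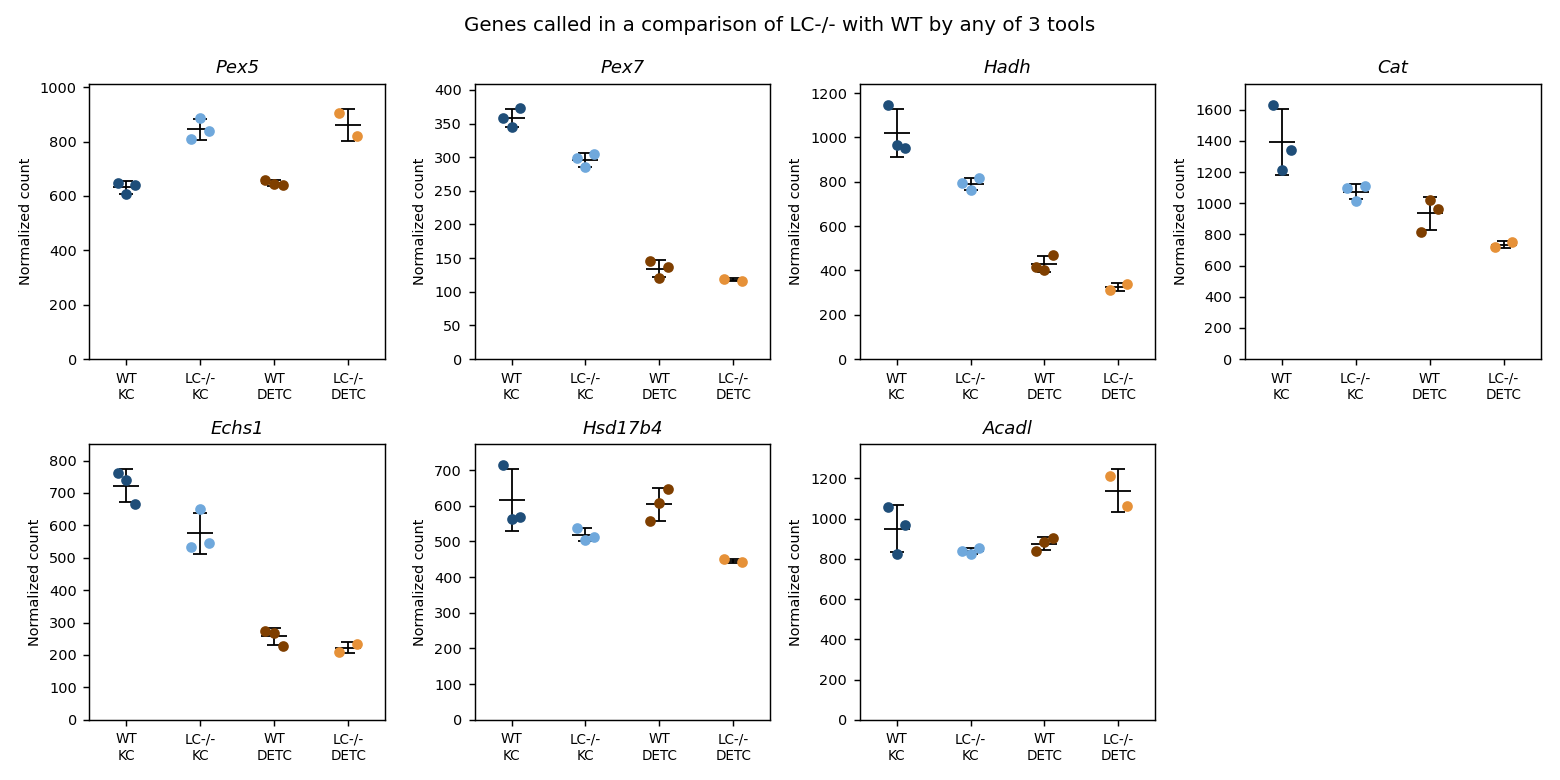
Normalized counts of the 7 members called in LC-/- against WT by limma, edgeR or DESeq2 in either population. Each point is a library and bars are the mean and SD. Pex5 is higher and Hadh, Cat, Hsd17b4 and Pex7 are lower in all LC-/- libraries of both populations. For Pex7 in DETCs the highest LC-/- value (119.4) is close to the lowest WT value (120.5). Acadl is higher in both LC-/- DETC libraries than in the WT DETC libraries.

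In DETCs limma called 0 members in either direction, against 3.13% of all genes higher and 0.430% lower. Before adjustment, 3 members had a p under 0.05 and were higher and 9 were lower, against 13.1% and 6.19% of all genes. The tool edgeR called 0 higher and 1 lower (2.84% and 0.506% of all genes), and DESeq2 called 2 higher and 1 lower (6.02% and 1.46%). The log2 difference was below 0 for 32 of 42 members, against 47.6% of all genes, with a median of -0.13 over the members and 0.02 over all genes. Both LC-/- libraries were below all WT libraries for 19 members and above for 5, against 16.5% and 21.3% of all genes. By role the log2 difference was below 0 for 2 of 3 members of carnitine entry, 8 of 11 of beta-oxidation, 11 of 14 of branched-chain amino acid breakdown, 3 of 3 of the propionate branch and 8 of 11 of the peroxisome. Their medians were -0.10, -0.09, -0.12, -0.13 and -0.18. Against the WT mean the median member stood at -0.08 in L2 and -0.15 in L3. Without L3, 25 of 42 members were below 0 and the median was -0.08.

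Hsd17b4, the D-bifunctional protein of peroxisomal beta-oxidation, had 556.5, 607 and 648 normalized counts in WT DETCs and 449.5 and 441 in LC-/- DETCs. The difference was -0.44 ± 0.11 on the log2 scale (limma adjusted p = 0.0688, edgeR adjusted p = 0.0462, DESeq2 adjusted p = 0.0128). In KCs it had 715, 564 and 569 (WT) and 539, 503 and 514 (LC-/-), also without overlap, at -0.24 ± 0.11 (limma adjusted p = 0.224). Hsd17b4 was thus the member called lower in DETCs by the count-based tools.

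On the higher side were Pex5 and Acadl. Pex5 had 659, 644 and 641 normalized counts in WT DETCs and 904 and 820.4 in LC-/- DETCs, at 0.41 ± 0.09 (limma adjusted p = 0.0572, DESeq2 adjusted p = 0.0262). The effect in DETCs minus that in KCs was -0.01 ± 0.11 (limma adjusted p = 0.986). Acadl had 840.3, 885.5 and 902 in WT DETCs and 1214 and 1064 in LC-/- DETCs, at 0.38 ± 0.10 (limma adjusted p = 0.0795, DESeq2 adjusted p = 0.0418). In KCs Acadl leaned the other way, with 1056.5, 826 and 967 in WT and 838, 827 and 854 in LC-/- libraries, which overlapped (-0.17 ± 0.09, limma adjusted p = 0.312).

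The members called in KCs stood as follows in DETCs. Hadh had 415, 402 and 472 normalized counts in WT and 314 and 337 in LC-/- DETCs (-0.40 ± 0.12, limma adjusted p = 0.12). Cat had 817, 1022 and 965 in WT and 717.5 and 751 in LC-/- DETCs (-0.34 ± 0.12, adjusted p = 0.158). For Hadh and Cat the genotypes did not overlap, and in KCs the log2 differences were -0.36 and -0.37. Pex7 had 146, 120.5 and 136 in WT and 119 and 116 in LC-/- DETCs (-0.18 ± 0.17, adjusted p = 0.603), and Echs1 had 275, 269 and 228 in WT and 209.7 and 234 in LC-/- DETCs (-0.21 ± 0.14, adjusted p = 0.482), which overlapped for Echs1.

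Summed KC markers were raised in the LC-/- DETC library L2 (208611) and not in L3 (138774), against 126065 to 150120 in WT DETCs. Of the 20 KC markers, 17 had a log2 difference above 0 between LC-/- and WT DETCs, with a median of 0.37. Limma called 1 of them higher and DESeq2 called 4, against 3.13% and 6.02% of all genes. At an unadjusted p under 0.05, 9 KC markers were higher and 0 lower, against 13.1% and 6.19%. Of 16 DETC markers 13 were below 0, with a median of -0.11. Limma called 1 of them lower and DESeq2 called 4, against 0.430% and 1.46% of all genes. DETC markers summed to 234940 to 240153 in WT and 202854 to 211434 in LC-/- DETCs, without overlap. Of the mitochondrially encoded transcripts 10 of 11 were above 0 in LC-/- DETCs, with a median of 0.12 and 0 called by limma, edgeR or DESeq2 or at an unadjusted p under 0.05. Sebaceous gland markers summed to 6045 to 8528 in WT and 7491 to 8394 in LC-/- DETCs, and to 5633 to 6446 in WT and 6297 to 7040 in LC-/- KCs, mostly from Fasn and Scd1. Of the 6 sebaceous markers that passed the filter, 4 were below 0 in DETCs (median log2 difference -0.60, 0 called by limma, edgeR or DESeq2, and before adjustment 1 higher and 2 lower) and 5 in KCs (median -0.06, 1 called lower by limma). Adipocyte markers summed to 102.9 to 126.1 in WT KCs, 123.4 to 157.6 in LC-/- KCs, 57.77 to 88.39 in WT DETCs and 105 to 130.1 in LC-/- DETCs, nearly all from Lipe. Of these markers Plin1, Cfd and Pck1 were at 0 in all 11 libraries. The part of these transcripts in the members' differences was not tested.

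The genotype comparisons in KCs and DETCs share no library, although libraries with the same number may come from the same mouse. For 29 of 42 members the log2 difference was below 0 in both, against 32.3% of all genes. Every LC-/- library was below every WT library in both populations for 11 members, which is 26.2% of them, against 5.0% of all genes. These were Cpt2 of carnitine entry, Hadh of beta-oxidation, Acadsb, Acad8, Hibch and Hibadh of branched-chain amino acid breakdown, and Acaa1a, Scp2, Hsd17b4, Cat and Pex7 of the peroxisome. In the opposite direction Pex5 alone stood above in both populations (1 of 42), against 7.80% of all genes. Acaa1a has a near-identical copy, Acaa1b, and reads of the pair cannot be fully told apart.

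Whether the effect of LC absence differed between the populations was tested as an interaction term in a model over the 11 libraries. Limma called 0 members in either direction, against 0.617% of all genes with a more positive and 0.180% with a more negative effect in DETCs. At an unadjusted p under 0.05, 3 members had a more positive effect in DETCs and 0 a more negative one, against 7.30% and 4.04% of all genes. They were Acadl (0.55 ± 0.14, limma adjusted p = 0.108), Auh (0.50 ± 0.16, adjusted p = 0.234) and Ehhadh, the peroxisomal bifunctional enzyme (0.72 ± 0.29, adjusted p = 0.371). Called members numbered 0 in either direction by edgeR (0.576% and 0.215% of all genes), and 1 more positive, Acadl (adjusted p = 0.0226), and 0 more negative by DESeq2 (1.64% and 0.527%).

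A further 82 genes of the same pathways and their regulators were read beside the members, of which 72 passed the filter. In KCs 0 were called higher and 3 lower by limma (5.37% and 1.85% of all genes), 2 and 8 by edgeR (8.27% and 4.10%) and 2 and 6 by DESeq2 (8.43% and 3.72%), and before adjustment 3 were higher and 16 lower (14.7% and 11.7%). In DETCs 2 were called higher and 0 lower by limma (3.13% and 0.430%), 2 and 0 by edgeR (2.84% and 0.506%) and 4 and 0 by DESeq2 (6.02% and 1.46%), and before adjustment 7 were higher and 5 lower (13.1% and 6.19%). In WT DETCs against WT KCs 17 were higher and 28 lower (41.0% and 35.1% of all genes), and in LC-/- mice 18 and 26 (38.1% and 32.1%). The median log2 difference between LC-/- and WT was -0.16 in KCs and -0.10 in DETCs, and over all genes -0.01 and 0.02.

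Among them, the nuclear receptor genes Ppara and Rxra were called lower in LC-/- KCs. PPAR-alpha binds DNA together with RXR-alpha and drives genes of fatty acid oxidation. Ppara had 238, 203 and 219 normalized counts in WT KCs and 133, 148 and 144 in LC-/- KCs (log2 -0.63 ± 0.09, limma adjusted p = 0.026, DESeq2 adjusted p = 0.00172). Rxra had 3999, 3543 and 3624 in WT KCs and 2669, 2996 and 2672 in LC-/- KCs (-0.42 ± 0.07, adjusted p = 0.0371, DESeq2 adjusted p = 0.000103). Acad11, a dehydrogenase of very long chains, had 816, 710.5 and 768 in WT and 593, 587 and 625 in LC-/- KCs (-0.34 ± 0.06, adjusted p = 0.0419). None of the 3 overlapped between the genotypes, and each lost its call without W1, W2, W3, L1 or L3 and Acad11 also without L2. Ppara also lost it in the fit over all 11 libraries, and Rxra and Acad11 with eBayes without trend, the adjusted p over all alternatives of Ppara, Rxra and Acad11 running up to 0.0909, 0.115 and 0.124.

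In DETCs Ppara was low, at 23.3 to 33.0, and not called by genotype (0.09 ± 0.32, limma adjusted p = 0.919). Its mean was 26.9 in WT DETCs against 219.9 in WT KCs, and 28.7 against 141.6 in LC-/- mice. KC transcripts were counted in every DETC library, and their part in these Ppara counts and in its interaction was not tested. Ppard, which encodes PPAR-delta, had 817, 831 and 948 normalized counts in WT and 1586 and 1179.7 in LC-/- DETCs (0.66 ± 0.14, limma adjusted p = 0.0457). Acsl4, a ligase that prefers arachidonic acid, had 2527, 2698 and 2824 in WT and 3615 and 3778 in LC-/- DETCs (0.46 ± 0.09, adjusted p = 0.0333). Both were higher in LC-/- DETCs without overlap, and Ppard lost its call without W1, W2, W3 or L2 and Acsl4 without W2, W3, L2 or L3. Both also lost it after quantile normalization and with eBayes without trend, and Acsl4 in the fit over all 11 libraries, the adjusted p reaching 0.202 and 0.256. With eBayes without trend, 0 of all genes tested were called higher and 0 lower between LC-/- and WT DETCs. The interaction was not called for Ppara (0.72 ± 0.27, adjusted p = 0.335), Rxra (0.56 ± 0.14, adjusted p = 0.113) or Ppard (0.43 ± 0.23, adjusted p = 0.545) by limma, and DESeq2 called that of Rxra (adjusted p = 0.0176). Ppargc1a, a coactivator of these receptors, was called in neither genotype comparison (0.20 ± 0.21 in KCs, adjusted p = 0.589, and 0.03 ± 0.43 in DETCs, adjusted p = 0.981), and Pparg did not pass the filter, with 1.9 to 14.7 normalized counts.

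**Figure D5:**
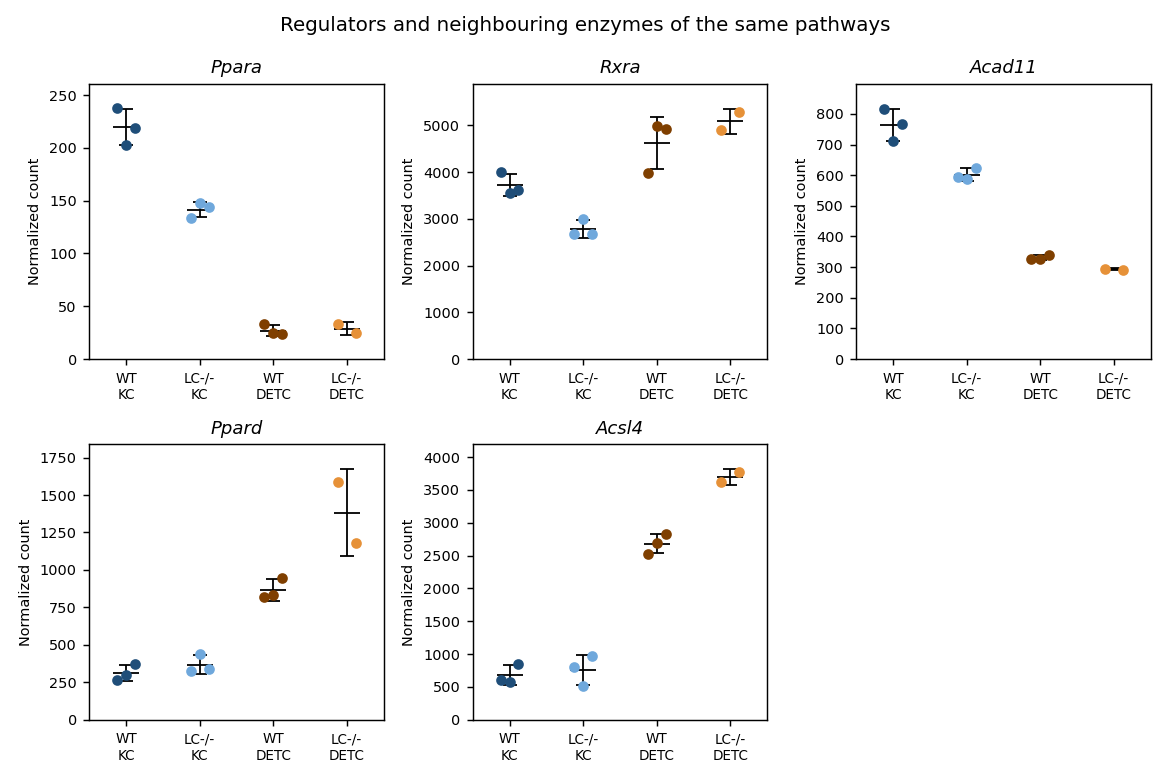
Normalized counts of regulators and neighbouring enzymes. Each point is a library and bars are the mean and SD. Ppara, Rxra and Acad11 are lower in all LC-/- KC libraries than in all WT KC libraries, and Ppard and Acsl4 are higher in both LC-/- DETC libraries than in the WT DETC libraries.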

How the data were processed

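RNA of sorted KCs and DETCs was sequenced in 11 poly-A libraries. Per the study's methods, trimming was by cutadapt, alignment by hisat2 (GRCm38) and counting per gene by featureCounts. The strand setting is not given in the sources used here. The authors deposited one signal value a gene and library, namely the count over a median-of-ratios size factor, not log-transformed. Dividing by the smallest value of each library gave whole reads for 100.0% of values (within 0.01 reads). Symbols and positions came from GENCODE M21 or, failing that, a gene name table (52403 of 52550 identifiers), and promoters from RefSeq.

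Genes were kept at the thresholds the authors state, a CPM over 1 in 2 or more libraries, applied here to the recovered reads. This kept 14419 genes, fewer than the authors state for their own filter, and why the sets differ was not tested. The log2 of the normalized count plus 1 was tested with limma 3.58.1 (eBayes with trend) in R 4.3.3, and edgeR 4.0.16 and DESeq2 1.42.0 were run on the recovered reads. Scripts were tested on simulated data, in which the changes were larger than the genotype differences of the members. The recovery of changes as small as these was not tested. The labels do not state which libraries share a mouse, so p-values measure the spread between these libraries. Replicates differed by more than counting error. The members, lists and tests were chosen with earlier results of these data known. All members could be named. Values per library are given for members called in a genotype comparison by any tool and for the 3 largest changes per direction between WT populations, and, of the other genes, for those limma called by genotype and the PPAR regulators. A result on 1 gene is not reported here. Pseudocounts, filters, scalings, tools, a joint fit, a replicate block and omission of each library were alternatives.

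Exons of some members overlap genes on the other strand, the longest overlaps being 1171 bases (Bckdha with B3gnt8), 1151 (Acadvl with Dvl2) and 1039 (Acsl1 with Gm45244), and such reads cannot be told apart without strand.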

Additional observations from a re-analysis of the deposited data

How the results depend on the processing

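No value that passed its test changed sign under the alternatives run. The count of members lower in LC-/- KCs (1) was 0 with a pseudocount of 8, with quantile normalization and with eBayes without trend, 3 without a filter on low values, 3 by edgeR and 3 by DESeq2, and 0 to 0 when 1 library was left out. The count higher in LC-/- KCs (1) was 0 to 1 when 1 library was left out. In DETCs the count higher (0) was 2 by DESeq2 and 2 in 1 fit over all 11 libraries, and the count lower (0) was 1 with TMM scaling, 1 by edgeR, 1 by DESeq2 and 2 in the fit over all 11 libraries. The members lower in LC-/- DETCs than in LC-/- KCs (17) were 27 after quantile normalization. For the interaction the count higher (0) was 1 by DESeq2. The cause of these shifts was not tested. Pex7 in KCs lost its call in 13 of 16 alternatives and Pex5 in 5 of 16.

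Numbers shared by a KC and a DETC library were checked for pairing. Over 14039 genes, the deviations of same-numbered libraries correlated at -0.0586 for W1, 0.0736 for W2, 0.12 for W3, 0.156 for L2 and 0.128 for L3. W3, L2 and L3 correlated best with their own number, and W1 and W2 did not. Deviations from means of 2 or 3 libraries in different cell types cannot settle this, so a shared mouse was neither shown nor excluded by them. The study's legend to its principal component plot describes every dot as its own animal, whereas the labels repeat numbers between KC and DETC libraries. With the replicate block, 6 members were higher and 19 lower in WT DETCs than in WT KCs, 6 and 14 in LC-/- mice, and 0 and 0 in the interaction.

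With 2 or 3 libraries a group, leaving out 1 ended most calls of single genes by genotype. The joint lean of the members was described and not tested.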
